A study of Mus musculus with 2 samples.

Results

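Mir532, Mir188, Mir362, Mir501 and Mir500 are 5 microRNA genes that lie in a row inside an intron of Clcn5 on the mouse X chromosome, and they were read here in C2C12 myotubes. They were picked by name as a polycistron, that is, miRNA genes close enough to be cut from 1 primary transcript, out of 2202 miRNA genes in the deposited tables, and all 5 identifiers matched GENCODE release M21. Their read counts were known when they were picked, so their levels are given as a description. C2C12 is a myoblast line from the thigh muscle of an injured C3H mouse that fuses into multinucleated myotubes in culture. The series held 1 group, cells differentiated for 72 h, represented by 2 libraries, biological replicates 1 and 2 by their labels, each from a biosample of its own of this 1 line. The labels name no treatment, transgene or undifferentiated control.

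A primary miRNA transcript is cut by Drosha into hairpins, and Dicer then releases from each hairpin a 5p and a 3p arm, of which one usually enters Argonaute and pairs with target mRNAs through its seed. Genes of a polycistron share a promoter and a primary transcript, but each hairpin is processed, and each mature miRNA decays, on its own. The host gene Clcn5 encodes a chloride-proton exchanger of endosomes, best known from the kidney proximal tubule and from Dent disease, in which it is lost. In mouse muscle, miR-501 has been studied in activated myogenic progenitors. In mouse bone marrow, miR-188 has been studied in the choice between bone and fat formation. The human counterparts of Mir362, Mir500 and Mir532 have been studied mainly in tumours.

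The mature arms are shown first because some of the members share a seed, the part that selects targets. The RefSeq sequences on GRCm38.p6 gave 9 arms, both arms for 4 genes and the 3p arm for Mir532. The seed, bases 2 to 8 from the 5′ end, is in capitals.
mmu-miR-532-3p: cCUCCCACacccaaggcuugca
mmu-miR-188-5p: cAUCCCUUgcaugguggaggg
mmu-miR-188-3p: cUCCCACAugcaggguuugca
mmu-miR-362-5p: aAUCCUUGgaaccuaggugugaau
mmu-miR-362-3p: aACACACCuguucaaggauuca
mmu-miR-501-5p: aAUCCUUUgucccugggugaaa
mmu-miR-501-3p: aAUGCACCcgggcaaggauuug
mmu-miR-500-5p: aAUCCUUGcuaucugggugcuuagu
mmu-miR-500-3p: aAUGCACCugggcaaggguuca

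These 9 arms carried 7 different seeds. The 3p arms of Mir501 and Mir500 shared the seed AUGCACC, and the 5p arms of Mir362 and Mir500 shared the seed AUCCUUG. Between miR-500-3p and miR-501-3p, 18 of 22 bases were identical. The substitutions were U9C, G18A, C21U and A22G, with the base of miR-500-3p first and positions counted from the 5′ end. The 3p arms of Mir532 and Mir188 aligned with 77.3% identity over 22 columns and had an exact run of 8 bases in common, but their seeds differ. Among the 5 hairpins, Mir501 and Mir500 were the most alike, at 67.3% identity over 110 aligned columns. The other pairs of hairpins ran from 43.1% for Mir362 with Mir501 to 57.3% for Mir188 with Mir362.

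The hairpins of the most abundant member and of the most alike pair are given next, on the minus strand of GRCm38.p6, with the listed mature arms in capitals.
Mir532 (chrX:7248402-7248497): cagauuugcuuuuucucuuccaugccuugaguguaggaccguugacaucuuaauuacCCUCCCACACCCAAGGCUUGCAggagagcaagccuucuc
Mir501 (chrX:7241243-7241351): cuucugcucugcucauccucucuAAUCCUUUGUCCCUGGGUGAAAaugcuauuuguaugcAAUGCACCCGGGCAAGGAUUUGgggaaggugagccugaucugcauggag
Mir500 (chrX:7237683-7237774): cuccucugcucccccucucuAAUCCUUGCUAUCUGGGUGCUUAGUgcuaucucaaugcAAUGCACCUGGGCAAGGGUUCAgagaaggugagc

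This likeness bears on the counts, because the deposited tables leave reads that map to several places out of the genes. The longest exact run that Mir501 and Mir500 shared was 14 bases. For Mir532, Mir188 and Mir362 the longest run shared with any other annotated miRNA hairpin, on either strand, was 13, 12 and 11 bases. No member therefore had 20 or more consecutive bases, roughly the length of a mature miRNA, in common with another annotated hairpin. Of the other 269 genes detected in both libraries, at 2 CPM or more (reads of the gene scaled to a fixed total of gene reads), 83 (30.9%) did.

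All 5 genes lie on the minus strand within Clcn5 (ENSMUSG00000004317.14, chromosome X from 7153810 to 7319358, mm10), and no other annotated miRNA gene lies in it. Along the direction of transcription Mir532 (ENSMUSG00000070139.1) comes first. Mir188 (ENSMUSG00000065398.1, 7247989 to 7248056) follows after a gap of 345 bases. Mir362 (ENSMUSG00000070100.1, 7241982 to 7242046) follows after 5942 bases, Mir501 (ENSMUSG00000076251.1) after another 630 and Mir500 (ENSMUSG00000070108.2) after 3468. The run spans 10.8 kb. Each member was intronic in all 3 annotated Clcn5 transcripts that span it, in the same intron of 103648 bases. That intron is number 3 of Clcn5-202, a protein-coding transcript of 15 exons. Mir532 begins 68161 bases after the preceding exon and Mir500 ends 24672 bases before the next one.

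Sense-strand reads of miRNA genes numbered 7581366 in replicate 1, 49.4% of its 15349205 reads, and 9865298 in replicate 2, 53.5% of its 18450359 reads. CPM (counts per 1e6) are relative to these sense-strand reads. Multimapping reads, left out of all genes, were 22.0% and 17.9% of all reads. The myotube label was set against 9 muscle miRNA genes, which took 35.5% of gene reads in replicate 1 and 42.8% in replicate 2, nearly all of it from Mir206. Of the 9, 6 were detected. Mir1a-2, Mir133a-1 and Mir133a-2 were not, and these genes have near-identical copies, with exact runs of at least 20 bases in common. Among the detected genes, Mir133b, Mir1a-1 and Mir486 have such runs too, so their counts may also lack multimapping reads. Mir1a-1, at 3.03 and 2.84 CPM in replicates 1 and 2, was only just above the detection cut of 2 CPM. Genes marking neurons, the 3 Mir124a copies, had no read. Each of these copies also has an exact run of at least 20 bases in common with another hairpin. Their reads may have been left out as multimapping, so this 0 does not show that they were absent. The 9 genes marking kidney tubule and other epithelium summed to 117 and 120.3 CPM. The 2 endothelial genes summed to 219 and 44.5 CPM and the 4 blood-cell genes to 105 and 182 CPM in replicates 1 and 2. Exact runs of at least 20 bases in common with another hairpin also occur in Mir126a, Mir126b, Mir142, Mir451a, Mir194-1 and Mir194-2. The epithelial, endothelial and blood-cell sums may therefore lack multimapping reads too. Both libraries are of 1 myoblast line, so these sums describe the named genes and do not show such cells. The source of these reads, and of their differences between libraries, was not tested. In such bulk samples, fewer cells of a type and less RNA per cell cannot be told apart.

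The 5 genes were all well expressed. Together they gave 128227 reads in replicate 1 and 135178 in replicate 2, or 1.69% (95% exact Clopper-Pearson interval 1.68% to 1.70%) and 1.37% (1.36% to 1.38%) of gene reads. The share was 1.53% ± 0.227 (SD, n = 2). These intervals, and those below, cover counting error of reads only, since the labels mention no molecular identifiers. Reads of all 142 miRNA genes on the X chromosome made up 6.22% and 4.33% of gene reads, and the 5 genes took 27.2% of these in replicate 1 and 31.6% in replicate 2. Among the X-linked genes only Mir322 and Mir351, of another cluster, had higher mean levels than Mir532.

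Mir532 led the cluster. It had 68342 reads in replicate 1 and 54167 in replicate 2, or 9014 and 5491 CPM. Mir532 was thus at 7253 ± 2492 CPM (SD, n = 2), the gene with rank 20 of 2202 by mean CPM. It was the highest member in each library, and replicate 1 was well above replicate 2.

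Mir188 came next. It had 35654 reads in replicate 1 and 40800 in replicate 2, or 4703 and 4136 CPM. Mir188 was at 4419 ± 401 CPM (SD, n = 2) and had rank 26. The lower Mir532 value, 5491 CPM in replicate 2, was above the higher Mir188 value, 4703 CPM in replicate 1, so the ranges of these neighbours did not overlap.

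The 3 downstream genes were lower and close together. Mir500 had 9470 and 13561 reads in replicates 1 and 2, or 1249 and 1375 CPM, with a mean of 1312 ± 88.7 CPM (SD, n = 2). Mir501, the member studied in myogenic progenitors, had 8416 and 12355 reads, or 1110 and 1252 CPM, with a mean of 1181 ± 101 CPM (SD, n = 2). Their ranges met, as the higher Mir501 value of 1252 CPM was just above the lower Mir500 value of 1249 CPM.

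Mir362 was the least even of the downstream genes. It had 6345 reads in replicate 1 and 14295 in replicate 2, or 837 and 1449 CPM, with a mean of 1143 ± 433 CPM (SD, n = 2). Its range enclosed those of Mir500 and Mir501, so the order of these 3 genes was not resolved. By mean CPM, Mir500, Mir501 and Mir362 had ranks 56, 61 and 64. The lower Mir188 value, 4136 CPM, was above every value of the 3 genes.

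**Figure D1:**
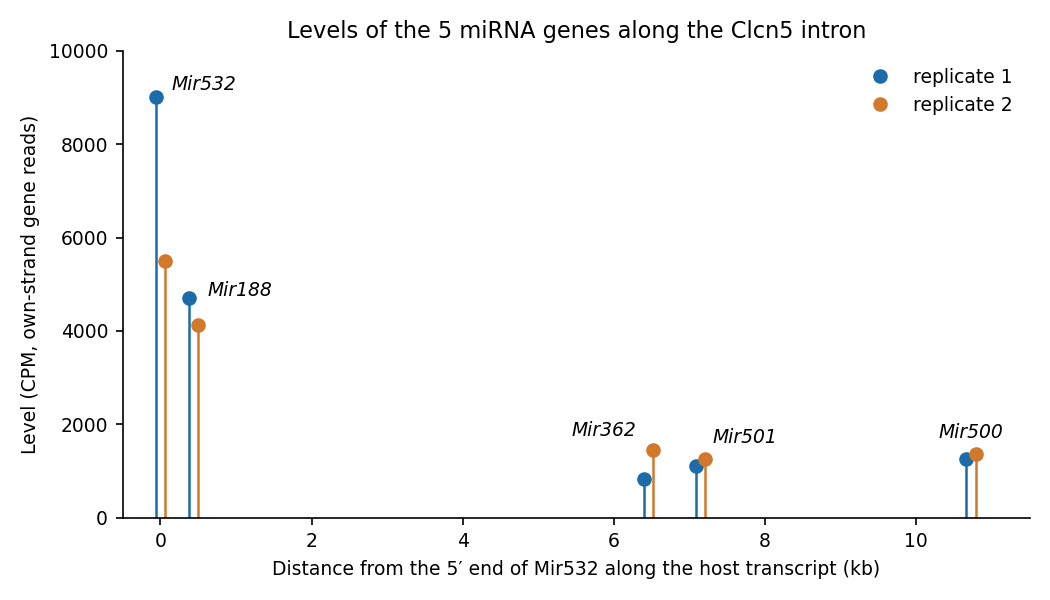
Level of each gene (CPM of sense-strand gene reads, y axis) against the distance of its 5′ end from that of Mir532 along the host transcript (kb, x axis); each point is 1 library, drawn slightly to either side of the gene's place. Mir532 and Mir188, 0.441 kb apart, stand at 4136 to 9014 CPM, and the 3 genes 6.45 to 10.7 kb downstream at 837 to 1449 CPM.

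Ratios between members within a library need no scaling between libraries. They are ratios of reads per gene, not divided by gene length, because the size range in the labels is shorter than the hairpins, and a read then covers a mature arm at most. In replicate 1 Mir532 had 1.92 times the reads of Mir188, and in replicate 2 it had 1.33 times as many, a log2 ratio of 0.67 ± 0.37 (SD, n = 2). Mir188 exceeded Mir500 by 1.75 ± 0.23 on the log2 scale, the widest step between neighbours in the order of the means. Mir500 exceeded Mir501, its closest relative in sequence, by 0.15 ± 0.03, or 1.13-fold in replicate 1 and 1.10-fold in replicate 2. This was the ratio that varied least between libraries of the 10 ratios between members.

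The ratios that changed direction between the libraries both involved Mir362. Mir501 had 1.33 times the reads of Mir362 in replicate 1 but 0.864 times in replicate 2, so its direction depended on the library. Mir500 likewise had 1.49 times the reads of Mir362 in replicate 1 and 0.949 times in replicate 2. The other 8 of 10 pairs had 1 direction in both libraries. Divided by the length of the annotated gene, which is 65 bases for Mir362 and 109 for Mir501, the mean log2 ratio of Mir501 over Mir362 was -0.65 and that of Mir500 over Mir362 was -0.25, and Mir532 over Mir188 was 0.18. With 2 libraries an exact paired permutation test cannot give a p below 0.5, and no ratio was tested.

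The composition of the cluster differed between the libraries. Mir532 made up 53.3% of the 5 genes' reads in replicate 1 and 40.1% in replicate 2, and Mir188 made up 27.8% and 30.2%. Mir362 made up 4.95% and 10.6%, Mir501 6.56% and 9.14%, and Mir500 7.39% and 10.03%. Grouped by position, a grouping chosen after the values were seen, the upstream pair had 4.29 times the summed level of the downstream 3 genes in replicate 1 and 2.36 times in replicate 2.

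**Figure D2:**
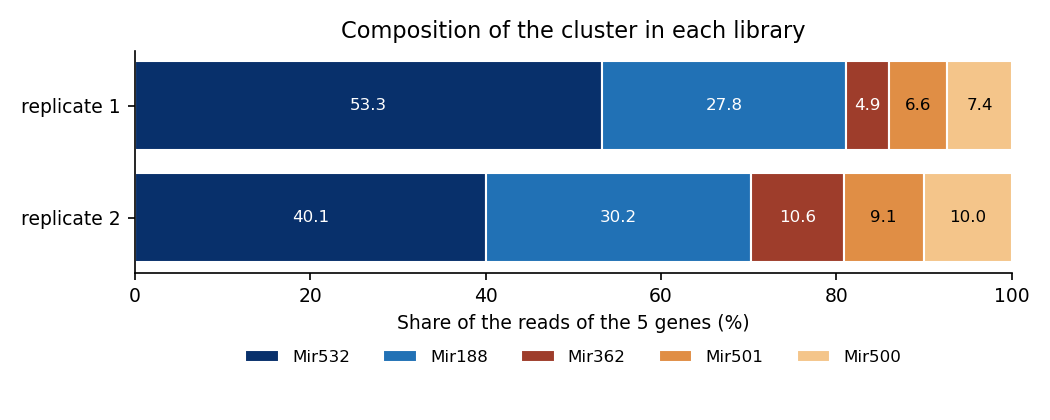
Share of each gene in the reads of the 5 genes (%, x axis) in each library (y axis), with genes ordered from left to right along the host transcript. The Mir532 segment is 53.3% in replicate 1 and 40.1% in replicate 2, and each of the other 4 segments is wider in replicate 2.

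The members did not move together between the libraries. The level of Mir532 in replicate 1 was 1.64 times that in replicate 2 (95% exact interval 1.62 to 1.66). The level of Mir188 in replicate 1 was 1.14 times that in replicate 2 (1.12 to 1.15). The downstream genes stood on the other side: replicate 1 over replicate 2 was 0.578-fold for Mir362 (0.561 to 0.595), 0.886-fold for Mir501 (0.862 to 0.911) and 0.909-fold for Mir500 (0.885 to 0.933). From Mir362 to Mir532 these folds spanned 2.84-fold. Every one of these 5 directions was the same with TMM factors, DESeq2 size factors and the count that ignores strand.

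Counting error was exceeded by the difference between the libraries in all 5 members in an exact two-sided binomial test, of which 2 had the higher level in replicate 1 and 3 in replicate 2. The same held for 55.7% of all 415 genes tested, made up of 30.4% that were higher in replicate 1 and 25.3% that were higher in replicate 2. The smallest of the members' differences, in Mir500, had an adjusted p of 7.22e-18 in that exact binomial test with Benjamini-Hochberg adjustment over all genes tested, and Mir188 had 6.77e-49. At these depths small differences pass, and many of the genes tested had far fewer reads than any member. The members were chosen with these counts known, and the test compares 2 libraries and not conditions, so nothing is read from this count.

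By size, 3 of the 5 differences were small among detected genes. The median absolute log2 difference was 0.19 over the 5 members, against 0.52 over all 274 detected genes, or 1.14-fold against 1.43-fold. Over the 64 detected genes with at least as many reads in each library as the lowest member, the median was 0.45. Mir500, Mir501 and Mir188 lay at the 13.5th, 19.0th and 20.1st percentile of absolute difference among detected genes. Mir532 and Mir362 lay at the 62.0th and 67.9th, with 103 and 87 detected genes further apart than they were.

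**Figure D3:**
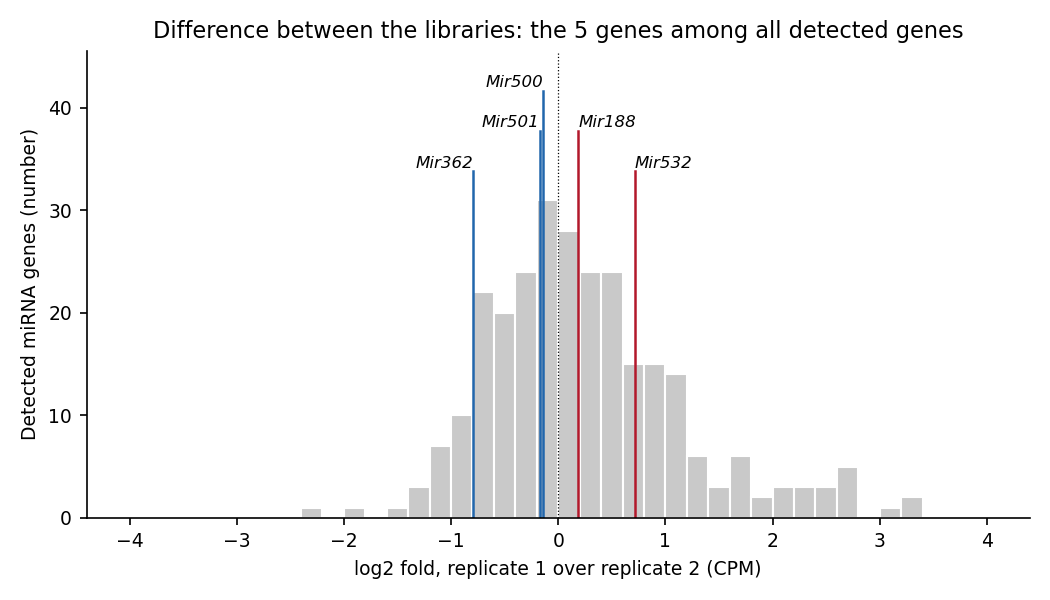
Histogram of the log2 fold of replicate 1 over replicate 2 (x axis, from CPM) over the 274 detected miRNA genes (y axis, number of genes), with a line at each of the 5 members; line heights only separate the names. Mir532 and Mir188 lie right of 0, at 0.72 and 0.19, and Mir500, Mir501 and Mir362 lie left of it, at -0.14, -0.17 and -0.79.

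The cluster was set beside other runs of miRNA genes, defined as 3 or more genes on 1 strand with gaps of at most 10 kb. Of 27 such runs, 9 had every gene detected (5 in the count that ignores strand), and 4 of these 9, the Clcn5 run included, lie wholly in an intron of a protein-coding gene. The summed mean level of the Clcn5 run, 15308 CPM, was the fourth highest of the 27. Its highest gene, Mir532, was 6.35-fold above its lowest, Mir362. The other 8 fully detected runs had ranges from 6.50-fold to 1092-fold, with a median of 34.0-fold. The nearest 3 were the sensory-organ run Mir183 to Mir182 at 6.50-fold, the run Mir106b to Mir25 in Mcm7, a DNA replication licensing gene, at 8.24-fold, and Mir99b to Mir125a in Spaca6 at 8.54-fold. These are descriptions, with no test.

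Sequence limits this comparison. In 6 of the other 8 runs at least 1 gene shares an exact stretch of 20 or more bases with some other hairpin. The stretch was matched on either strand, so the count of that gene may lack multimapping reads, but a loss was not shown. In the Clcn5, Mir183 and Mir106b runs no gene has such a stretch. The range of the Clcn5 run was 10.8-fold in replicate 1 alone and 4.38-fold in replicate 2 alone. It was the narrowest of the 9 in replicate 2 and the fourth narrowest in replicate 1. In the spread of the folds between libraries the 9 runs ran from 1.33-fold for Mir23b to Mir24-1 up to 29.1-fold for Mir17 to Mir92-1, and the Clcn5 run, at 2.84-fold, was the fourth narrowest.

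**Figure D4:**
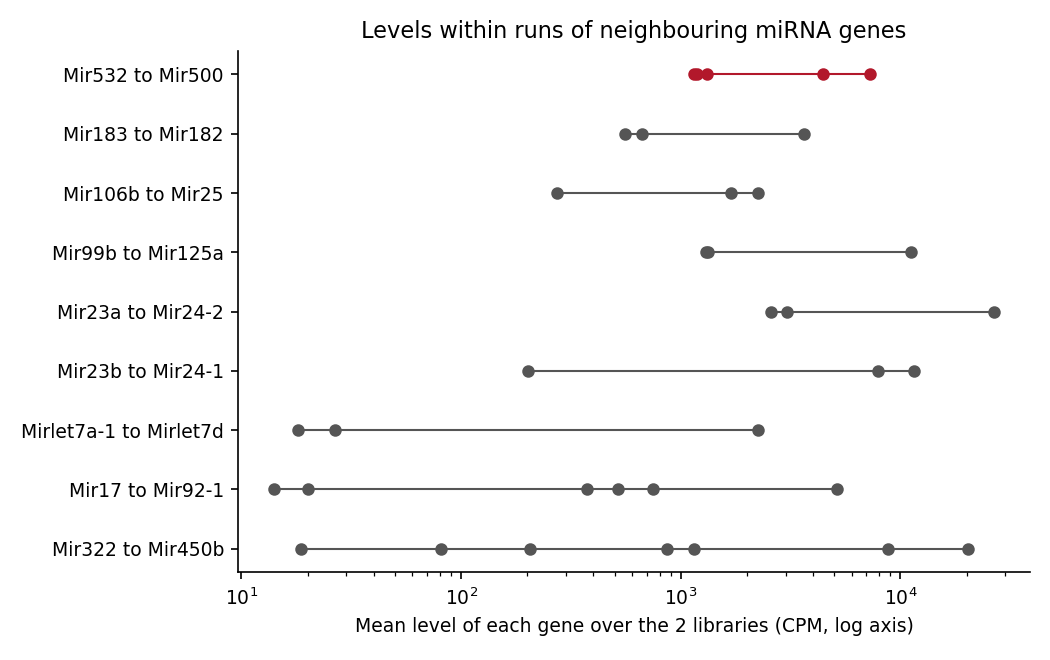
Mean level of each gene over the 2 libraries (CPM, log x axis) in the 9 runs of neighbouring miRNA genes in which every gene was detected (y axis, named by the first and last gene along the transcript); points are genes and lines join the lowest to the highest. The Clcn5 run, in red, extends from 1143 to 7253 CPM, and the widest run, Mir322 to Mir450b, from 18.6 to 20298 CPM.

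Other miRNA genes with the seed of one of the 9 arms shown above had almost no reads. The 5p arm of Mir532 is not among these 9, and genes that share its seed were not looked for. Outside the cluster, 2 genes in the RefSeq sequences have an arm with the seed of one of the 9. Mir329, whose 3p arm shares the seed of miR-362-3p, had 0 reads in both; a count of 0 allows a level of up to 0.396 CPM (replicate 1) or 0.304 CPM (replicate 2). Mir7061, whose 3p arm shares the seed of miR-188-5p, had 2 reads in replicate 1 and 1 in replicate 2. The tables count genes and not arms, so the arm from which the members' reads came was not measured here.

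In composition and predicted fold the hairpins lay within the quartiles of detected miRNA genes, except for the folding energy of Mir532. GC content ran from 46.2% in Mir362 to 55.9% in Mir188, against a median of 51.4% (quartiles 45.0% and 57.4%) over the other 269 detected genes. The minimum free energy predicted by RNAfold was -0.35 kcal/mol per base for Mir532, the most abundant member, and -0.42 to -0.46 for the other 4, against a median of -0.43 (quartiles -0.49 and -0.39). Between the 5p and 3p arms lay 18 bases in Mir188, 15 in Mir501 and 13 in each of Mir362 and Mir500. No read was counted on the opposite strand at any member in either library.

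The detected genes nearest to each member in level were listed by Euclidean distance over log2(CPM + 1) in the 2 libraries, which with so few libraries is a likeness of level only. Nearest to Mir532 were Mir27b at 8643 and 7106 CPM and Mir100 at 8135 and 8073 CPM in replicates 1 and 2. The hairpin of Mir27b has at least 20 consecutive bases in common with that of another gene, so its count may lack multimapping reads. Mir188 was nearest to Mir29a (6134 and 4489 CPM) and Mir30d (4375 and 3107 CPM). Mir362 was nearest to Mir671, which had 839 and 1529 CPM, and then to Mir181d. The distance uses both libraries, so a difference between them like that of Mir362 follows from the choice of Mir671. Mir501 was nearest to Mir181d, at 1083 and 1237 CPM, and Mir423, at 1282 and 1260.4 CPM. Mir500 was nearest to Mir423 and to Mir125a, at 1137 and 1477 CPM.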

How the data were processed

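Small RNA of 2 libraries of 72 h C2C12 myotubes was analysed from raw counts of reads for each miRNA gene, as deposited by the authors; per the file headers' companion notes they were made on mm10 with annotation M21. Aligner, counter and filters: not given in the sources used here. Every table has columns for strand ignored, own strand and opposite strand. The own-strand column, recognised from its values, was used, and CPM were computed per own-strand reads over gene rows. The summary lines, which name no gene, stayed out of totals and tests: multimapping, unmapped and no-feature reads were 22.0%, 22.7% and 5.88% of reads in replicate 1 and 17.9%, 23.1% and 5.57% in replicate 2.

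All 2202 identifiers matched GENCODE M21, which gave coordinates (1-based) and hairpins. Detection meant 2 CPM or more in both libraries. With 1 group, edgeR's quasi-likelihood test had no contrast. Libraries were compared by an exact two-sided binomial test with TMM effective sizes (edgeR 4.0.16, R 4.3.3). It was adjusted by Benjamini-Hochberg across genes having at least 10 reads in total, at a threshold of 0.05. The test was also run on simulated counts with known changes and counting error only. Such counts cannot show how it fares with variation between replicates. Log2 ratios used a pseudocount of 0.5 reads. Hairpins were aligned with Biopython 1.88 and folded with RNAfold 2.7.2; scipy 1.17.1 gave intervals. Named genes were the members, the 2 genes nearest in level to each, seed relatives, markers, and runs of genes nearest in range. Alternatives covered scaling (DESeq2 1.42.0), strand, denominator, filters, pseudocount, gene length, gaps and each replicate left out. The members and lists were chosen with earlier results of these data known. No batch is given in the labels.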

Additional observations from a re-analysis of the deposited data

How the results depend on the processing

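The cluster's share of gene reads, 1.53%, was 0.784% with all reads as the denominator and 2.46% without Mir206, the most abundant gene, in the total, as both denominators are built to give. Divided by the length of the annotated gene, the mean log2 ratio was 0.18 for Mir532 over Mir188, 2.19 for Mir188 over Mir500 and 0.40 for Mir500 over Mir501, and it turned to -0.65 for Mir501 over Mir362 and to -0.25 for Mir500 over Mir362. With 1 replicate left out, Mir501 over Mir362 ran from -0.21 to 0.41 and Mir500 over Mir362 from -0.076 to 0.58; no other ratio between members changed direction. The 5 genes were detected at thresholds of 1, 5 and 10 CPM too. With neighbouring genes joined over at most 3 kb the Clcn5 run broke up and gave no value. Over at most 50 kb, 11 runs had every gene detected in place of 9, and with the count that ignores strand 5 had; the Clcn5 run, at 6.35-fold and 6.25-fold, had the narrowest range in both. No paired analysis was possible because the series has 1 group. Counting error of the members' levels was smaller than their difference between the 2 libraries. How evenly different miRNAs were captured in the libraries was not measured. Levels compared between genes are therefore levels of reads.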
